A study of Mus musculus with 8 samples.

Results

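The 10 genes described here are the core of de novo lipogenesis in liver: Acly, Me1, Acaca, Acacb, Fasn, Thrsp, Srebf1, Mlxipl, Gpam and Dgat2. Every non-control probe of the array that carried 1 of these names, or an accession that the RefSeq gene table pairs with it, was taken, which gave 19 probes. The 10 genes stand among 22225 genes with a tested probe, and all 19 probes passed the filter on dim signals. Acaca had 4 probes, Dgat2 had 3, and Fasn, Acacb, Acly and Mlxipl had 2 each. Me1, Thrsp, Srebf1 and Gpam had 1. Where a gene had several, the probe with the highest mean intensity is the lead probe, and the counts of genes below rest on lead probes.

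The study asked how adenoviral Cux2 affects the liver transcriptome in both sexes, on 8 two-channel Agilent arrays of liver RNA from ICR scid mice aged 8 weeks. These mice lack mature T and B lymphocytes and keep macrophages and neutrophils. Untreated males were compared with untreated females (10 mice each by the sample labels). Males given Adeno-Cux2, an adenovirus that carries the homeobox factor Cux2, were compared with males given the control virus Adeno-CMV at 3 days (11 and 11 mice) and at 5 days (12 and 13 mice), and females likewise at 5 days (8 and 7 mice). The virus dose and the promoter that drives Cux2 are not given in the sources used here. Each comparison had 2 arrays, each with its own pair of pools of 3 to 7 mice, and the dyes were reversed between them. The spread is therefore between pools, with n = 2 arrays per comparison, and says nothing of the spread between single mice.

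De novo lipogenesis turns surplus carbohydrate into fatty acids. Citrate exported from mitochondria is split by ATP citrate lyase into acetyl-CoA, acetyl-CoA carboxylase makes malonyl-CoA, and fatty acid synthase builds palmitate from both with NADPH, part of which comes from malic enzyme. In liver the pathway follows feeding: insulin acts mainly through SREBP-1c, a product of Srebf1, and glucose through ChREBP, the product of Mlxipl. The fatty acids are then esterified, with Gpam at the entry step of glycerolipid synthesis and Dgat2 at the step that closes triglyceride synthesis.

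Local backgrounds had medians of 289 to 315 in green and 327 to 342.5 in red, and 68.2% to 80.1% of gene spots per channel were well above background. Agreement between both arrays of a comparison, as Pearson's r across all probes (which are no replicates), was lowest for the untreated pair (0.596), then 0.681 for the female pair, 0.865 for the male pair of day 5 and 0.89 for that of day 3. Cux2 itself had 2 probes with the same directions, and by probe 1 it was higher in the male pools labelled Adeno-Cux2 (0.60 ± 0.09 at day 5 and 0.49 ± 0.09 at day 3, log2 ratio ± SE). It was lower in the female pools labelled Adeno-Cux2 (−0.61 ± 0.09, −0.58 and −0.65 on the 2 arrays). Whether these probes lie in the Cux2 sequence that the virus carries is not given, so they do not check the labels. In untreated mice Cux2 was lower in males than in females (−1.88 ± 0.09), which is the level without virus. Some other genes, named here after their values were seen, had the same direction in both sexes at day 5. Among them were Scd2 (2.57 ± 0.12 in males and 2.58 ± 0.12 in females) and Elovl3 (−2.36 ± 0.09 and −1.70 ± 0.09). Others were unlike, such as Acta1 (1.61 ± 0.39 in males and −2.97 ± 0.39 in females) and Pdk4 (2.09 ± 0.20 and 0.09 ± 0.20). These genes do not check the labels either. By slide, the arrays of untreated mice went with those of males at day 5, and the arrays of females with those of males at day 3.

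In males 3 days after treatment, 9 of the 10 lipogenesis genes were lower in the Adeno-Cux2 pools than in the Adeno-CMV pools and none was higher, by limma at an adjusted p under 0.05. The lead-probe ratios of all 10 were below 0 on both arrays, and their median was −0.84 on the log2 scale against 0 for all genes. More genes of the liver were called in this comparison than in any other: 20.3% of all genes by lead probe were called lower and 23.9% higher. Thrsp fell furthest, followed by Me1 and the enzymes of the fatty acid synthesis line, while Srebf1 missed the threshold.

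Acly, which supplies cytosolic acetyl-CoA, had log2 ratios of −1.13 and −1.28 on the 2 arrays, and a fitted ratio of −1.21 ± 0.16 (2.31-fold lower, adjusted p = 0.00101). Its 4 day 3 pools were cleanly apart: normalised log2 signals were 13.48 and 13.62 in the Adeno-CMV pools and 12.35 and 12.34 in the Adeno-Cux2 pools. Me1, the cytosolic malic enzyme that yields NADPH, had ratios of −1.37 and −1.17 (−1.27 ± 0.08, 2.41-fold lower, adjusted p = 5.16e-05). The Me1 signal was 15.20 and 14.94 in the Adeno-CMV pools against 13.83 and 13.77 in the Adeno-Cux2 pools, with no overlap.

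Acaca, the acetyl-CoA carboxylase of the cytosol, had ratios of −0.84 and −0.88 on the lead probe (−0.86 ± 0.15, 1.81-fold lower, adjusted p = 0.00354). Acacb encodes the carboxylase bound to mitochondria, whose malonyl-CoA restrains fatty acid import for oxidation, and its lead probe gave −0.19 and −0.98 (−0.59 ± 0.15, adjusted p = 0.0185). The 2 Acacb ratios thus differ widely, and replicate 2 carries most of the fitted value. Fasn, the fatty acid synthase, had ratios of −0.86 and −1.40 (−1.13 ± 0.24, 2.19-fold lower, adjusted p = 0.00805). Its signal was 15.95 and 16.33 in the Adeno-CMV pools and 15.09 and 14.92 in the Adeno-Cux2 pools.

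Thrsp, also called Spot14, encodes a small protein known to follow thyroid hormone and carbohydrate intake and to accompany fatty acid synthesis. Its ratios were −2.58 and −2.27 (−2.43 ± 0.30, 5.37-fold lower, adjusted p = 0.000731), the lowest of the 10 genes on both arrays. The signal was 16.94 and 15.86 in the Adeno-CMV pools and 14.36 and 13.59 in the Adeno-Cux2 pools. The pools of each virus differed from each other, and the groups did not overlap.

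Of the pathway's main transcription factors, Mlxipl fell and Srebf1 missed the threshold. Mlxipl had ratios of −0.96 and −0.68 (−0.82 ± 0.16, 1.76-fold lower, adjusted p = 0.00665), with signals of 14.13 and 14.09 in the Adeno-CMV pools and 13.17 and 13.41 in the Adeno-Cux2 pools. Srebf1 had ratios of −0.47 and −0.36 (−0.41 ± 0.14, adjusted p = 0.0556), so both arrays were below 0 but the test was missed. Which of the SREBP-1a and SREBP-1c transcripts its probe reads is not given in the files.

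Of the esterification genes, Dgat2, the diacylglycerol acyltransferase that uses newly made fatty acids, had ratios of −0.66 and −0.84 (−0.75 ± 0.11, 1.68-fold lower, adjusted p = 0.00194). Gpam, the mitochondrial glycerol-3-phosphate acyltransferase, had ratios of −0.32 and −0.70 (−0.51 ± 0.14, 1.42-fold lower, adjusted p = 0.0246). Differences in response between genes were not tested.

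The day 3 result leaned on replicate 2 of its own arrays. The share of all genes called in each alternative fit is not reported here. Without replicate 2, 4 of the 10 genes remained called: Thrsp (adjusted p = 0.0139), Me1 (0.00248), Acly (0.0204) and Mlxipl (0.0273). The genes lost were Fasn (−0.75, adjusted p = 0.169), Acaca (−0.83, 0.0598), Acacb (−0.19, 0.342), Gpam (−0.39, 0.278) and Dgat2 (−0.58, 0.0538). Without replicate 1, 7 were called, with Mlxipl (−0.59, adjusted p = 0.132) and Gpam (−0.63, 0.0907) lost. Over all 19 alternatives the adjusted p ran from 0.00122 to 0.169 for Fasn, 0.000431 to 0.0598 for Acaca, 0.00377 to 0.342 for Acacb, 0.00557 to 0.278 for Gpam, 0.000864 to 0.0538 for Dgat2 and 0.00117 to 0.132 for Mlxipl. Thrsp, Me1 and Acly were called under all 19.

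**Figure D1:**
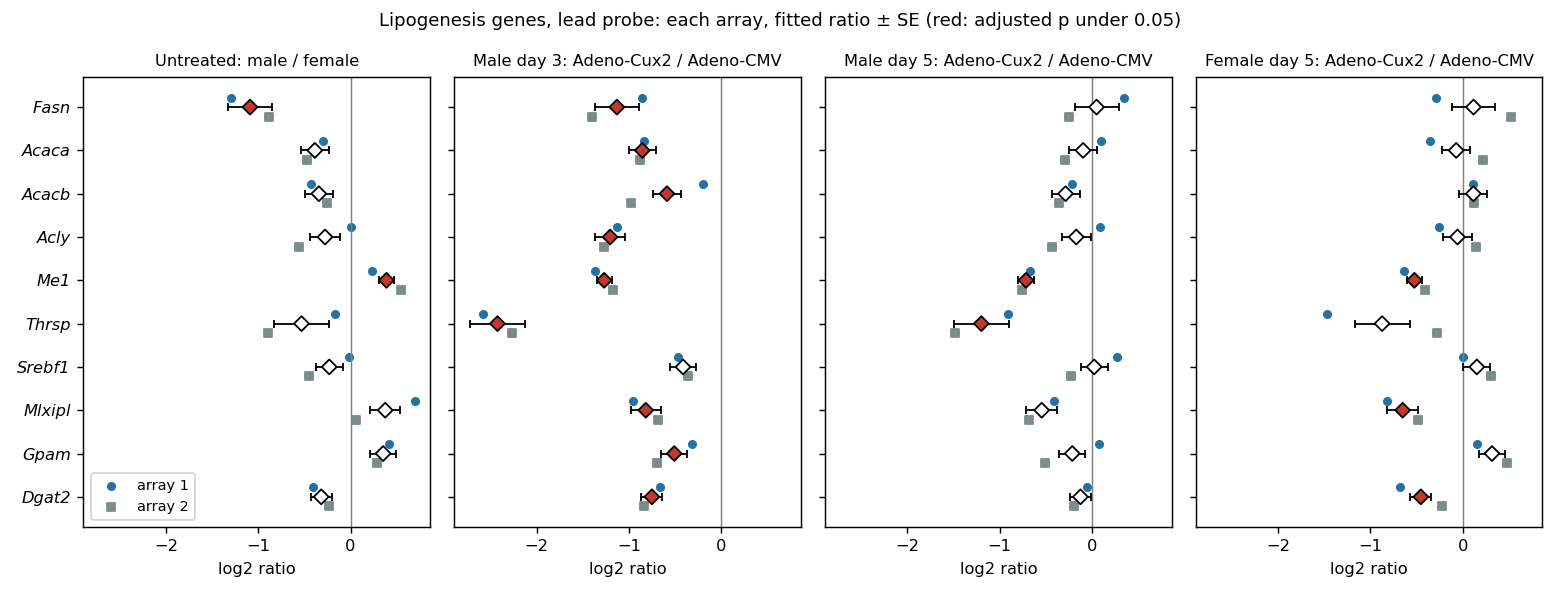
Log2 ratios of the lead probe of each gene (x axis) in the 4 comparisons, 1 panel each. Circles are array 1, squares are array 2, and diamonds with bars are the fitted ratio ± SE, in red where the adjusted p was under 0.05. In males at day 3 all 10 diamonds lie below 0 and 9 are red, while in the other panels 2 or 3 are red.

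The promoters of these genes are shown because 9 of the 10 genes fell in the same comparison. RefSeq (GRCm38.p6) gave 14 windows for 9 genes, each from 250 bases before to 50 bases after a transcript start, and none for Dgat2. The windows were searched on both strands for the E-box CACGTG that ChREBP and USF proteins can bind, the sterol response core ACCCCAC, the GC box GGGCGG and the CCAAT box CCAAT. The E-box was in 1 of 14 windows (7.15% of all 32851 windows held it), the sterol response core in 2 (6.21%), the GC box in 6 (35.7%) and the CCAAT box in 9 (37.4%). Several windows of 1 gene are not independent, and a match is a description of letters, not a binding site. The 250 bases before the start are printed 5′ to 3′ in the direction of transcription for Thrsp, which had the lowest ratio, Fasn, the synthase itself, Gpam, with the sterol response core, and Mlxipl, with the E-box. Capitals mark the motifs or their reverse complements.
Thrsp (chr7:97417551-97417800, minus strand): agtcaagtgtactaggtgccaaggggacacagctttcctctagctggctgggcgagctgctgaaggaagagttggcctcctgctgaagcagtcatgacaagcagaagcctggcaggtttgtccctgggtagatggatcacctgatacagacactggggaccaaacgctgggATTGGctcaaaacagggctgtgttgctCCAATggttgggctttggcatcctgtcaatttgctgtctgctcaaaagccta
Fasn (chr11:120824548-120824797, minus strand): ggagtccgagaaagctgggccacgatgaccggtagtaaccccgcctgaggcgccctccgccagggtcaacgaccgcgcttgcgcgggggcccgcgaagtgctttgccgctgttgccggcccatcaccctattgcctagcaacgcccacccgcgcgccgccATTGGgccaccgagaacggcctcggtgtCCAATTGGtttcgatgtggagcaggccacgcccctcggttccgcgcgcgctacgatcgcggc
Gpam (chr19:55127239-55127488, minus strand): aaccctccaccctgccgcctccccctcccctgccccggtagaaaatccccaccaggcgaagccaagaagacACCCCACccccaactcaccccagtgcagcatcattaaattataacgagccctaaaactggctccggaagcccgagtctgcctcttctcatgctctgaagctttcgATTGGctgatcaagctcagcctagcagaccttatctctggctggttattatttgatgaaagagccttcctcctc
Mlxipl (chr5:135089640-135089889, plus strand): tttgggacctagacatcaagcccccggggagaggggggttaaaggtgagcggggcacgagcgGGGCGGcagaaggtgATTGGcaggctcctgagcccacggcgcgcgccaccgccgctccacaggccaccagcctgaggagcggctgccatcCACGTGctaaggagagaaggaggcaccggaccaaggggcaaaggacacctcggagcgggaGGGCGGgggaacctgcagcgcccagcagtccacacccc

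The CCAAT boxes began 79 and 52 bases before the Thrsp start and 90, 62 and 59 bases before the Fasn start, the last pair overlapping as a palindrome. In Gpam the sterol response core began 179 bases and a CCAAT box 74 bases before the start. In Mlxipl the E-box began 98 bases before the start, a CCAAT box 173 bases, and GC boxes 188 and 38 bases. The other window with the sterol response core was of Me1. It lies inside the gene as RefSeq places it, and the Me1 window at the 5′ end of the gene did not hold the core. CCAAT boxes were in windows of 8 of the 9 genes, all but Acaca, among them Srebf1, the gene that missed the test at day 3. The only Acaca window lies inside the gene as RefSeq places it, so the 5′ end of Acaca was not searched. The Acly match was not in the 250 bases before the start. The count by gene has no share over all genes beside it, and a gene with several windows has more chances to hold the motif.

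In males 5 days after treatment, 2 of the 10 genes were lower and none was higher, where 4.82% of all genes by lead probe were called lower and 13.8% higher. These 2 were Me1 and Thrsp. Only 5 of the 10 genes had both arrays below 0, the other 5 had arrays of opposite sign, and the median of the 10 was −0.19 against 0.01 for all genes. Me1 had ratios of −0.68 and −0.75 (−0.71 ± 0.08, 1.64-fold lower, adjusted p = 0.00144). Its signal was 14.97 and 15.01 in the Adeno-CMV pools and 14.29 and 14.26 in the Adeno-Cux2 pools, so the groups lay apart with little spread inside each. Thrsp had ratios of −0.91 and −1.48 (−1.20 ± 0.30, 2.30-fold lower, adjusted p = 0.0355), with signals of 16.76 and 16.91 against 15.84 and 15.42.

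Mlxipl had ratios of −0.41 and −0.68 on its lead probe (−0.54 ± 0.16, adjusted p = 0.0692) and missed the test, although its pools did not overlap. Its second probe gave −0.60 and −0.48 (−0.54 ± 0.14, adjusted p = 0.0391) and passed. The synthesis line itself gave small values at day 5: Fasn 0.34 and −0.24 (0.05 ± 0.24, adjusted p = 0.925), Acaca 0.10 and −0.29 (−0.10 ± 0.15, adjusted p = 0.739), and Acly 0.09 and −0.43 (−0.17 ± 0.16, adjusted p = 0.549). The 95% interval of Fasn ran from −0.52 to 0.61. Srebf1 gave 0.28 and −0.23 (0.02 ± 0.14, adjusted p = 0.942). Acacb, Gpam and Dgat2 had fitted ratios of −0.29, −0.21 and −0.12, with adjusted p from 0.273 to 0.542.

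The day 5 male calls depended on single arrays. Without its own replicate 2, none of the 10 was called (Me1 −0.55, adjusted p = 0.0599, and Thrsp −0.79, adjusted p = 0.5). Without replicate 1, Thrsp was lost (−1.61, adjusted p = 0.134), and it was lost too without either male day 3 array (adjusted p = 0.0565). Over 19 alternatives the adjusted p ran from 0.000128 to 0.0599 for Me1, called in 18, and from 7.08e-05 to 0.5 for Thrsp, called in 13. Beside that, 4 of 10 were called when the 2 arrays were fitted alone, with Mlxipl (adjusted p = 0.00179) and Acacb (adjusted p = 0.0175) added. The share of all genes called in that fit is not reported here.

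The difference between days in males was tested as day 5 minus day 3, so that a positive value means less reduction at day 5. It was positive for all 10 genes, with a median of 0.59 against 0.02 for all genes. Acly (1.03 ± 0.22, 95% interval 0.50 to 1.57, adjusted p = 0.0303) and Me1 (0.55 ± 0.12, 0.28 to 0.83, adjusted p = 0.0267) passed, or 2 of 10, where 8.15% of all genes by lead probe were called higher and 4.9% lower. Thrsp (1.23 ± 0.42, 0.23 to 2.23, adjusted p = 0.112), Fasn (1.18 ± 0.34, 0.38 to 1.98, adjusted p = 0.0682), Acaca (0.76 ± 0.21, 0.26 to 1.26, adjusted p = 0.0635) and Dgat2 (0.63 ± 0.16, 0.24 to 1.01, adjusted p = 0.0516) missed the threshold after adjustment. The remaining genes had 0.44 (Srebf1), 0.30 (Acacb), 0.30 (Gpam) and 0.27 (Mlxipl). By probe, 5 of 19 were higher (7.25% of all probes): besides the lead probes of Acly and Me1, further probes passed for Fasn (1.35, adjusted p = 0.0355), Acaca (0.94, adjusted p = 0.00702) and Dgat2 (0.60, adjusted p = 0.0376). The day 3 and day 5 arrays lay on different slides, so slide and day cannot be told apart. Both calls were lost without any 1 of the 4 male arrays (adjusted p from 0.112 to 0.247 for Acly and 0.0771 to 0.233 for Me1), and without either female array 6 of 10 were called.

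Pool signals show where the ratios of the days part, as a description without a test, since these levels were set across slides. For Fasn the Adeno-Cux2 pools lay at 15.12 and 14.93 at day 5 and 15.09 and 14.92 at day 3, which is the same range, while the Adeno-CMV pools lay at 14.77 and 15.18 at day 5 and 15.95 and 16.33 at day 3. For Acly the Adeno-CMV pools were at 12.73 and 12.97 at day 5 and 13.48 and 13.62 at day 3, and the Adeno-Cux2 pools at 12.82 and 12.53 against 12.35 and 12.34. Me1 behaved otherwise: its Adeno-CMV pools were alike on both days (14.97 and 15.01, 15.20 and 14.94) and its Adeno-Cux2 pools were lower at day 3 (13.83 and 13.77) than at day 5 (14.29 and 14.26). The Thrsp Adeno-CMV pools were at 16.76 and 16.91 on day 5 and 16.94 and 15.86 on day 3, and its Adeno-Cux2 pools at 15.84 and 15.42 on day 5 and 14.36 and 13.59 on day 3. The Thrsp pools with Adeno-CMV overlapped between the days and those with Adeno-Cux2 did not. In these pools Fasn differed between the days with Adeno-CMV, and Me1 with Adeno-Cux2.

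**Figure D2:**
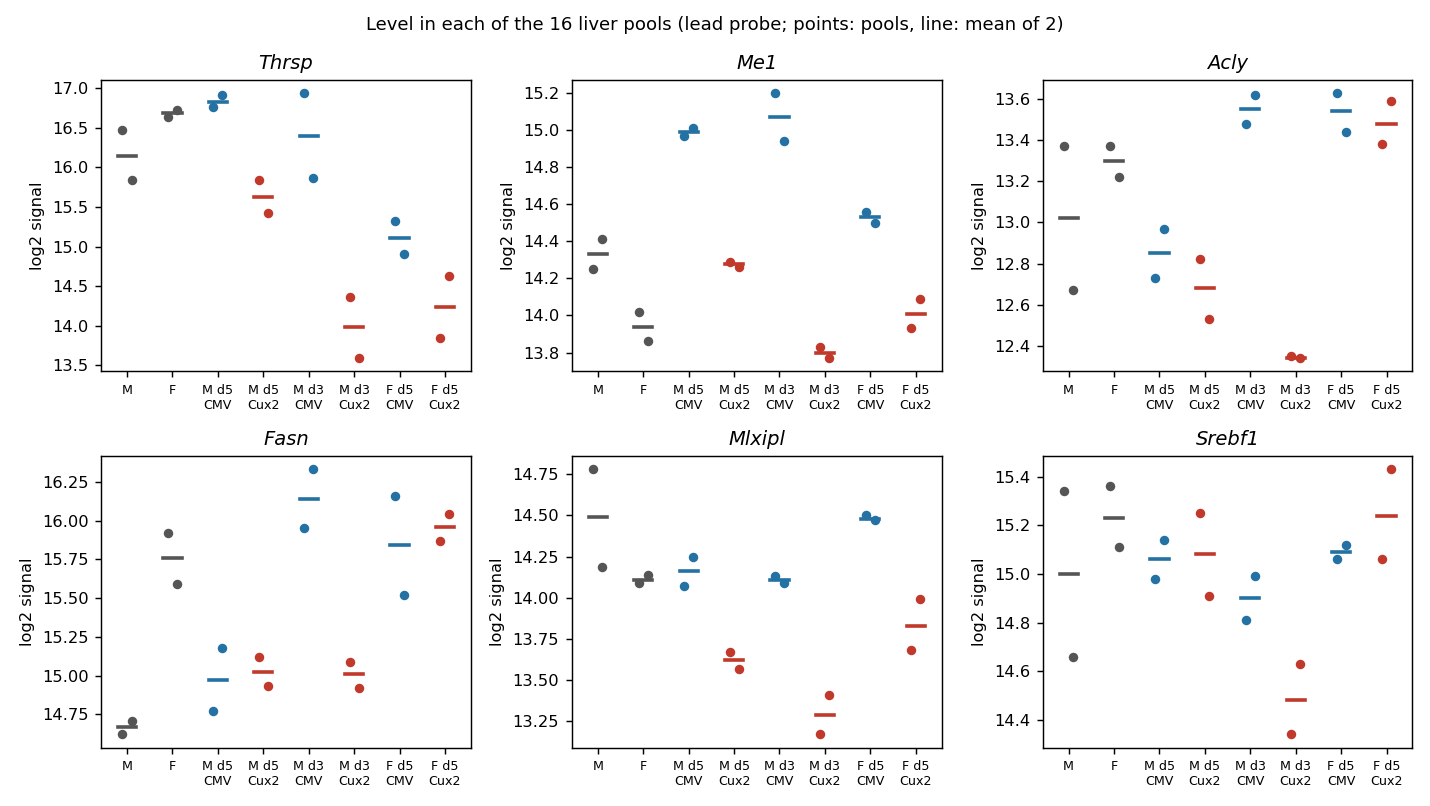
Normalised log2 signal (y axis, not starting at 0) of 6 genes in each of the 16 liver pools, as points, with a line at the mean of 2. M is male, F female, d3 and d5 are days 3 and 5, and grey, blue and red are untreated, Adeno-CMV and Adeno-Cux2 pools. Thrsp, Me1 and Mlxipl are lower in every Adeno-Cux2 pool than in the Adeno-CMV pools of the same sex and day. The Fasn pools are apart at day 3 in males and overlap at day 5.

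In females 5 days after treatment, 3 of the 10 genes were lower in the pools labelled Adeno-Cux2 and none was higher, where 6.25% of all genes by lead probe were called lower and 12.7% higher. The 3 were Me1, Mlxipl and Dgat2. Cux2 signal went against the label in these pools, as given above, so directions here are those of the labels. Me1 had ratios of −0.63 and −0.41 (−0.52 ± 0.08, 1.44-fold lower, adjusted p = 0.00628), with signals of 14.56 and 14.50 in the Adeno-CMV pools and 13.93 and 14.09 in the pools labelled Adeno-Cux2. Mlxipl had ratios of −0.82 and −0.48 (−0.65 ± 0.16, 1.57-fold lower, adjusted p = 0.0374), with signals of 14.50 and 14.47 against 13.68 and 13.99. Dgat2 had ratios of −0.68 and −0.23 (−0.45 ± 0.11, 1.37-fold lower, adjusted p = 0.0373). In all 3 genes the pools of the labels did not overlap, and replicate 1 showed the larger difference.

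Thrsp in females gave −1.47 and −0.28 (−0.87 ± 0.30, adjusted p = 0.0953), so the arrays had the same sign but very different sizes. Its pools, at 15.32 and 14.90 with Adeno-CMV and 13.85 and 14.63 with the label Adeno-Cux2, did not overlap. Fasn gave −0.28 and 0.52 (0.12 ± 0.24, adjusted p = 0.801), Acaca −0.36 and 0.22 (−0.07 ± 0.15, adjusted p = 0.811) and Acly −0.26 and 0.14 (−0.06 ± 0.16, adjusted p = 0.862), with arrays of opposite sign in each. Gpam was above 0 on both arrays, at 0.16 and 0.48 (0.32 ± 0.14, adjusted p = 0.186), and Srebf1 and Acacb had 0.15 ± 0.14 and 0.12 ± 0.15. The median of the 10 genes was −0.06 against 0 for all genes.

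Without female replicate 1 none of the 10 was called (Me1 −0.49, adjusted p = 0.112, Mlxipl −0.37, 0.459, and Dgat2 −0.20, 0.506). Without female replicate 2, Me1 and Mlxipl missed the threshold (both adjusted p = 0.0577) and Thrsp passed (−1.63, adjusted p = 0.016). Without either male day 5 array, Mlxipl (adjusted p = 0.0716) and Dgat2 (adjusted p = 0.0627) were lost. Over 19 alternatives the adjusted p ran from 0.00585 to 0.112 for Me1, 0.00973 to 0.459 for Mlxipl and 0.0234 to 0.506 for Dgat2.

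No lipogenesis gene differed between the sexes in its response at day 5, by limma on the female minus male contrast. Of all genes by lead probe, 0.225% were called in that contrast, so it called few genes of any kind. At an unadjusted p under 0.05, 1 of the 10 passed, Gpam, against 10.8% of all genes, so the share is near the background. Its difference was 0.53 ± 0.20 (95% interval 0.06 to 1.01, adjusted p = 0.426 by limma), with a fitted ratio of −0.21 in males and 0.32 in females. The intervals of the other differences ran from −0.73 to 0.87 for Fasn, −0.67 to 1.33 for Thrsp, −0.08 to 0.47 for Me1, −0.66 to 0.45 for Mlxipl and −0.71 to 0.06 for Dgat2. For Fasn, Thrsp and Dgat2 these widths leave room for differences larger than the fitted response of either sex. For Mlxipl they reach about the size of the responses, and for Me1 they stay below it. Slide and sex cannot be told apart here.

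Among untreated mice, Fasn was lower and Me1 higher in males, or 2 of 10 genes, where 4.84% of all genes by lead probe were called higher and 6.04% lower. Fasn had male over female ratios of −1.30 and −0.88 (−1.09 ± 0.24, 2.13-fold lower, adjusted p = 0.0356). The Fasn signal was 14.62 and 14.71 in the male pools and 15.92 and 15.59 in the female pools, more than the distance between pools of either sex. Its second probe gave −0.20 and −0.87 (−0.53 ± 0.22, adjusted p = 0.174) and did not pass. Me1 had ratios of 0.23 and 0.55 (0.39 ± 0.08, 1.31-fold higher, adjusted p = 0.0317), with signals of 14.25 and 14.41 in males and 14.02 and 13.86 in females.

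The other 8 genes did not pass in untreated mice. Thrsp gave −0.17 and −0.90 (−0.53 ± 0.30, adjusted p = 0.304), Acaca −0.30 and −0.48 (−0.39 ± 0.15, adjusted p = 0.153), Dgat2 −0.40 and −0.23 (−0.32 ± 0.11, adjusted p = 0.133) and Gpam 0.42 and 0.29 (0.35 ± 0.14, adjusted p = 0.166). The Mlxipl probes differed in sign: the lead probe gave 0.69 and 0.06 (0.38 ± 0.16, adjusted p = 0.198) and the second −0.74 and 0.15 (−0.30 ± 0.14, adjusted p = 0.22). Both untreated calls were lost without untreated replicate 1 (Fasn −0.83, adjusted p = 0.402, and Me1 0.49, adjusted p = 0.12). Without replicate 2, Fasn (−1.35, adjusted p = 0.0594) and Me1 (0.29, adjusted p = 0.144) also missed it, and Mlxipl passed (0.75, adjusted p = 0.0398). Fasn was lost without either male day 5 array (adjusted p = 0.0522) and Me1 without either male day 3 array (adjusted p = 0.0564). Over 19 alternatives the adjusted p ran from 0.00493 to 0.402 for Fasn and from 0.031 to 0.29 for Me1, and neither passed without background subtraction or with the scanner software's own ratios. Me1 also missed the threshold with median centring (adjusted p = 0.0628), without the dye term (0.0545) and on its own 2 arrays (0.29).

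The single-probe view was backed by further probes for some genes and not for others. Of the 19 probes, 16 were lower in males at day 3 (20.1% of all probes were called lower), 4 lower in males at day 5 (4.78%), 6 lower in females at day 5 (6.2%), and 1 higher and 1 lower in untreated mice (4.71% and 5.07%). The 3 Dgat2 probes lay in chr7:99028897-99029793 of mm8 and gave −0.71, −0.76 and −0.75 in males at day 3. The 2 Fasn probes (chr11:120623236-120623295 and chr11:120622442-120622501) gave −1.13 and −1.46 there, and the 2 Mlxipl probes (chr5:135422262-135422321 and chr5:135422512-135422571) gave −0.82 and −0.93. The files give gene names and mm8 positions for these probes, and not whether they lie in an exon or UTR.

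Acaca was less even: in males at day 3 its probes gave −1.13 (adjusted p = 0.000106), −0.14 (0.177), −0.86 (0.00354) and −0.38 (0.00992), in the order of their numbers. The probes with −0.14 and −0.38 had mean log2 intensities of 6.61 and 6.90, against 11.37 for the lead probe. Their positions span 1004 and 12416 bases of mm8, against 60 for the lead probe, and lie 5′ of the lead probe at chr11:84217052-84217111. The probe with −1.13 was rather dim as well, at 7.63. It spans 4001 bases and also lies 5′ of the lead probe, so these features do not set the weaker probes apart. Acaca probe 1 passed in females at day 5 as well (−0.60 and −0.27, −0.43 ± 0.09, adjusted p = 0.0173), where the lead probe gave −0.07. Acacb probe 2 gave fitted ratios between −0.06 and 0.11 in all 4 comparisons, but its mean log2 intensity was 6.18 and only 9 of its 16 channels were well above background. Acly probe 2, with a mean log2 intensity of 6.60, was lower in all 3 treated comparisons (−0.44, −0.30 and −0.38 in males at day 3, males at day 5 and females at day 5, adjusted p = 0.00143, 0.0177 and 0.00788), where the lead probe passed at day 3 alone. The normexp step adds 50 to every signal, which draws the ratios of such dim probes towards 0.

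A further Me1 probe was left out, since it carried only an older name that RefSeq lists as a synonym. It gave −0.72 in males at day 5, −1.30 in males at day 3 and 0.13 in untreated mice, and −0.66 in females, where array 2 was dropped as an outlier spot. The Me1 probe reported above is at chr9:86378398-86378458, and the probes of Thrsp, Srebf1 and Gpam are at chr7:97292244-97292303, chr11:60015907-60015966 and chr19:55124163-55124222, all on the minus strand of mm8.

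**Figure D3:**
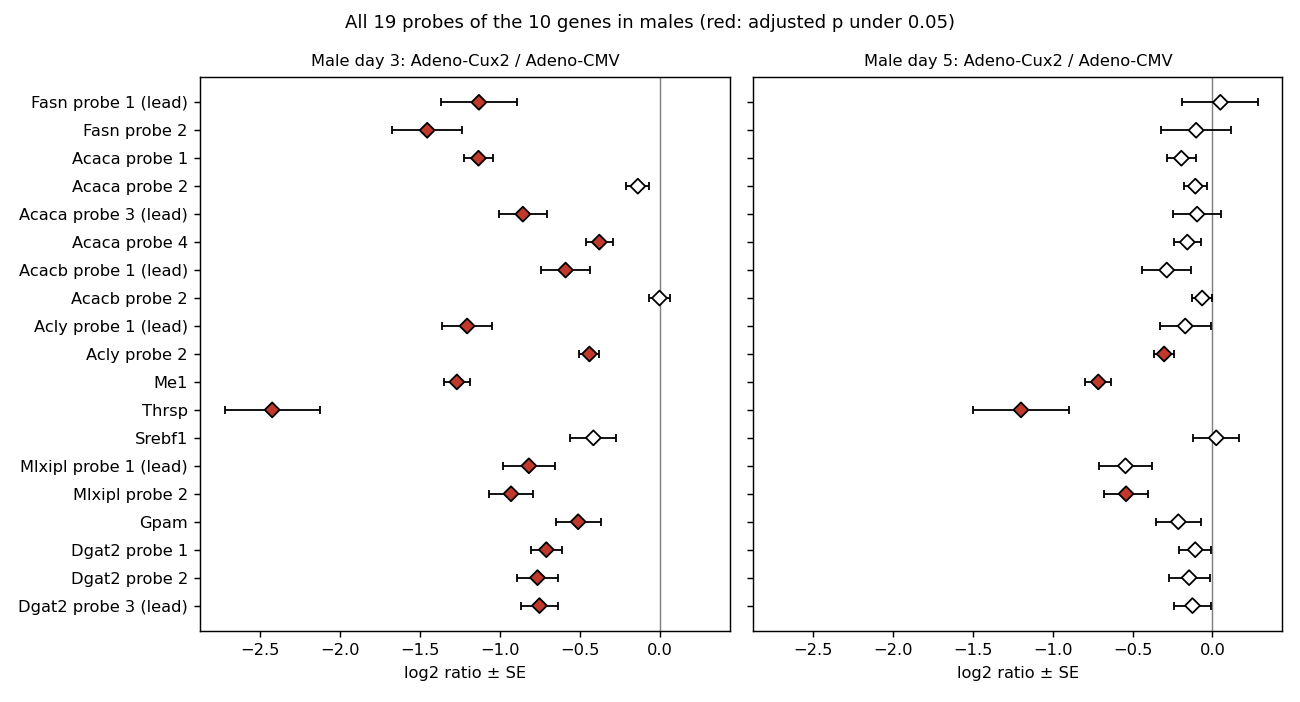
Fitted log2 ratio ± SE (x axis) of all 19 probes in males at day 3 (left) and day 5 (right), red where the adjusted p was under 0.05. At day 3, 16 probes are red and the exceptions are Acaca probe 2, Acacb probe 2 and Srebf1, and at day 5 the 4 red probes are Acly probe 2, Me1, Thrsp and Mlxipl probe 2.

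Across the 8 arrays Fasn and Me1 had unlike profiles, given as a description over 8 points that share dyes and slides. These points mix the untreated sex comparison with the virus comparisons. On the untreated arrays Fasn (−1.30 and −0.88) and Me1 (0.23 and 0.55) had opposite signs. On the male day 3 arrays both genes were below 0. Correlations over the virus arrays alone are not given, so the values below do not describe the virus response by itself. Fasn correlated with Acaca at a Pearson r of 0.83, with Srebf1 at 0.74 and with Acacb at 0.71, but with Me1 at −0.07 and with Mlxipl at −0.31. Me1 correlated with Mlxipl at 0.84 and with Thrsp at 0.79, and with Srebf1 at 0.13. Acaca and Acly were the closest pair, at 0.94, and Thrsp lay between, at 0.89 with Acly and 0.36 with Fasn. The mean over the 10 genes was −0.94 and −1.06 on the male day 3 arrays, −0.14 and −0.52 on the male day 5 arrays, −0.42 and 0.04 on the female arrays and −0.13 and −0.28 on the untreated arrays. At day 5 the lower array was replicate 2 in males and replicate 1 in females. Of 18527 other genes above background on all 8 arrays, the 5 with the profile most like this mean were Hsd17b7 (r of 0.975), Pik3r1 (0.971), Mettl7b (0.97), Myorg (0.969) and Qdpr (0.962).

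Of 22 measured genes that feed the pathway with substrate and NADPH, 10 were lower, 2 higher and 10 not called in males at day 3, with a median of −0.34. Over all genes 20.3% were lower and 23.9% higher in that comparison. Slc2a2, the liver glucose transporter GLUT2, had −2.37 and −2.05 (−2.21 ± 0.14, adjusted p = 4.81e-05), and Khk, the ketohexokinase that commits fructose to metabolism, −1.82 and −1.60 (−1.71 ± 0.14, adjusted p = 0.000139). The 2 that rose were the NADPH-yielding enzymes of the pentose phosphate route: G6pdx, glucose-6-phosphate dehydrogenase, at 1.71 and 1.43 (1.57 ± 0.08, adjusted p = 2.42e-05), and Pgd at 0.71 and 0.33 (0.52 ± 0.08, adjusted p = 0.00205). Me1 and G6pdx, both sources of NADPH, thus moved in opposite directions. G6pdx was higher at day 5 too, by 1.15 ± 0.08 in males (adjusted p = 0.000165) and 0.98 ± 0.08 in females (adjusted p = 0.000567). At day 5 the list counted 3 higher and 4 lower in males and 2 higher and 6 lower in females, and in untreated mice 1 higher and 3 lower. The shares of all genes called higher and lower were 13.8% and 4.82% in males at day 5 and 12.7% and 6.25% in females. In untreated mice they were 4.84% and 6.04%.

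Of 31 measured regulators of lipogenesis, 14 were lower and 5 higher in males at day 3, with a median of −0.35, against 20.3% and 23.9% of all genes. Insig1, which holds SREBP in the endoplasmic reticulum and is itself an SREBP target, had −0.98 and −1.31 (−1.15 ± 0.14, adjusted p = 0.000647), and Insr, the insulin receptor, −1.27 and −0.98 (−1.13 ± 0.07, adjusted p = 5.12e-05). Among the 5 that were higher, Mbtps2, the protease that releases SREBP within the membrane, rose by 0.67 ± 0.09 (adjusted p = 0.00129), and Prkab1, a subunit of AMP-activated kinase, by 0.51 ± 0.10 (adjusted p = 0.00512). Without male day 3 replicate 2 the counts were 8 lower and 1 higher, and the software's ratios gave 13 lower and 3 higher. At day 5 the shares of all genes called lower and higher were 4.82% and 13.8% in males, and 6.25% and 12.7% in females. The regulator list there counted 4 lower and none higher in each sex. Lpin1, a phosphatidate phosphatase and coregulator, was the lowest of them at −0.98 ± 0.12 in males and −0.83 ± 0.12 in females (adjusted p = 0.00159 and 0.0039), and it was also lower in untreated males, at −1.45 ± 0.12 (adjusted p = 0.000711).

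Desaturases and elongases, which modify the palmitate made by Fasn, counted 8 lower and 2 higher of 12 in males at day 3, with a median of −0.79, against 20.3% and 23.9% of all genes. Elovl6, the elongase that takes palmitate to stearate, had −1.86 and −1.88 (−1.87 ± 0.25, adjusted p = 0.00105), and Elovl3, another elongase, −3.47 and −3.96 (−3.71 ± 0.09, adjusted p = 9.36e-06). Scd2, a stearoyl-CoA desaturase best known from brain, rose in all 3 treated comparisons, by 2.49, 2.57 and 2.58 (SE 0.12 each) in males at day 3, males at day 5 and females at day 5. Scd1, the main hepatic desaturase, was lower in males at day 3 (−0.87 and −2.30, −1.59 ± 0.24, adjusted p = 0.00169). Its ratio in males at day 5 was 0.13 ± 0.24 (adjusted p = 0.772), and it was higher in females at day 5 (0.88 and 0.92, 0.90 ± 0.24, adjusted p = 0.0417). The Scd1 male day 5 minus day 3 difference was 1.72 ± 0.33 (adjusted p = 0.0209), and that of Elovl6 was 1.73 ± 0.35 (adjusted p = 0.0244). Slide and day cannot be told apart in these differences.

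Genes of triglyceride assembly and lipid droplets did not share 1 direction in males at day 3: 12 of 34 were higher and 11 lower, with a median of 0.07, against 23.9% and 20.3% of all genes. Cidec, a droplet protein, rose by 2.40 ± 0.14 (2.51 and 2.28, adjusted p = 3.88e-05) and Mogat2, a monoacylglycerol acyltransferase, by 1.47 ± 0.10 (adjusted p = 5.23e-05). Fitm1, which helps form droplets, had −1.55 ± 0.11 (adjusted p = 6.23e-05) and Gpat2 −1.07 ± 0.08 (adjusted p = 7.1e-05). Cidec was called higher in males at day 3 alone, with a male day 5 minus day 3 difference of −2.66 ± 0.20 (adjusted p = 0.00196). Slide and day cannot be told apart in this difference. At day 5 the shares of all genes called higher and lower were 13.8% and 4.82% in males, and 12.7% and 6.25% in females. The list there counted 4 higher and 10 lower in males and 6 higher and 7 lower in females. In untreated mice it counted 5 higher and 8 lower in males, where 4.84% and 6.04% of all genes were called. Pnpla3, a lipase-like protein of droplets, was among the lower ones, at −2.20 and −1.94 (−2.07 ± 0.35, adjusted p = 0.0153).

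**Figure D4:**
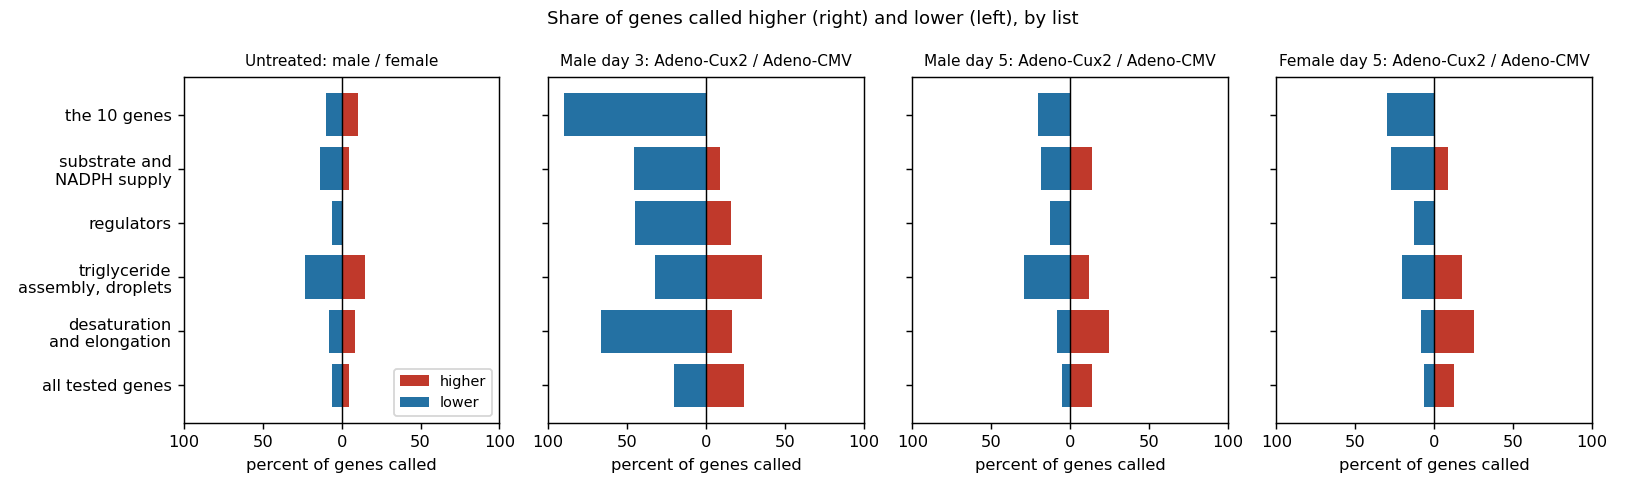
Percent of the genes of each list (x axis) called higher (right, red) and lower (left, blue) in the 4 comparisons, with all tested genes in the bottom row. In males at day 3 the 10 lipogenesis genes reach 90% lower, against 20.3% of all genes, and the triglyceride and droplet list is split between directions.

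Of 10 measured genes of fatty acid oxidation and its control, the pathway's counterpart, 5 were lower, 3 higher and 2 not called in males at day 3, against 20.3% and 23.9% of all genes. Ppara, the receptor that drives hepatic oxidation in fasting, had −1.45 and −1.17 (−1.31 ± 0.11, adjusted p = 0.00013). Pdk4, the kinase that shuts pyruvate dehydrogenase in fasting, was higher, at 4.07 and 2.74 (3.41 ± 0.20, adjusted p = 3.71e-05).

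Of 18 measured clock and feeding genes, 9 were lower and 2 higher in males at day 3, against 20.3% and 23.9% of all genes. By the rule for named genes, G6pc, the glucose-6-phosphatase of gluconeogenesis, had −2.64 ± 0.15 (adjusted p = 3.18e-05), Hlf −1.22 ± 0.14 (adjusted p = 0.000523), Igfbp1 3.26 ± 0.43 (adjusted p = 0.000994) and Per1 0.55 ± 0.08 (adjusted p = 0.0013). Several clock genes, named after their values were seen, differed widely between the arrays: Dbp had −1.51 and −0.17, Nr1d1 −1.28 and −0.38, Nr1d2 −1.16 and −0.06, Ciart −1.64 and 0.24 and Cry1 0.03 and −0.71. In each of these but Cry1, replicate 1 was the lower array. At day 5 the counts were 1 higher and 2 lower in males and 4 lower in females, and in untreated mice 3 lower, among them Igfbp1 at −3.52 and −2.04. The shares of all genes called higher and lower were 13.8% and 4.82% in males at day 5 and 12.7% and 6.25% in females. In untreated mice they were 4.84% and 6.04%. The part of feeding state and time of day in the lipogenesis values was not tested.

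Some markers of hepatocytes and of other liver cells differed in the same pools. Bulk liver RNA cannot tell fewer cells of a type from less RNA per cell. Of all genes by lead probe, 23.9% were called higher and 20.3% lower in males at day 3. These shares were 13.8% and 4.82% in males at day 5, and 12.7% and 6.25% in females at day 5. The hepatocyte list counted 8 lower and 2 higher of 13 in males at day 3, with a median of −0.33 against 0 for all genes. It counted 4 higher and none lower in males at day 5, and 5 higher and 1 lower in females at day 5. Several higher calls, named after their values were seen, rested on replicate 1. Ahsg had 1.75 and −0.05 in males at day 3, 1.83 and 0.10 in males at day 5 and 1.90 and 0.22 in females. Alb had 1.58 and −0.16 in males at day 5 and 1.25 and −0.02 in females. Ttr was even at day 5 (0.41 and 0.30 in males, 0.63 and 0.62 in females). The dye term takes up such splits between replicates, so the SE does not show them. The summed signal of the hepatocyte list ran from 1870000 to 2411000 in the day 3 Adeno-CMV pools. In the day 3 Adeno-Cux2 pools it ran from 1287000 to 1944000, which overlaps. The summed signal of the 10 lipogenesis genes ran from 340500 to 405800 and from 157200 to 182100 in those pools, which do not overlap. Sums weigh abundant genes most and ignore the array pairs, so they do not rank the lists. Some hepatocyte markers, named after their values were seen, fell far in males at day 3. Cyp2e1 had −2.49 ± 0.08, Hpd −1.90 ± 0.20 and Apoa2 −1.77 ± 0.14, while 2 of the 13 were higher. Macrophage markers counted 6 higher and 5 lower of 15 at day 3, 14 higher and none lower in males at day 5, and 11 higher and none lower in females at day 5. Their summed signal was 83050 to 88810 in the female Adeno-CMV pools and 202300 to 235100 in the female pools labelled Adeno-Cux2. Neutrophil markers counted 7 higher of 9 in each treated comparison, stellate markers 6 to 8 of 10, and cholangiocyte markers 5 to 7 of 8. Endothelial markers counted 3 higher and 2 lower of 10 in males at day 3, which is near the shares of all genes. They counted 4 higher in each day 5 comparison. The summed signal of cholangiocyte markers was 23200 to 23560 in the day 3 Adeno-CMV pools and 102400 to 111700 in the Adeno-Cux2 pools. The part of these cell types in the lipogenesis values was not tested.

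Adipocytes also express most of the 10 genes. The summed signal of 9 adipocyte markers was low. It ran from 2223 to 2784 in the day 3 Adeno-CMV pools and from 1824 to 2538 in the Adeno-Cux2 pools, which overlap. Of the 9 markers 1 was higher and 2 lower, where 23.9% of all genes were called higher and 20.3% lower. The marker that rose, named after its value was seen, was Aqp7 (1.40 ± 0.07, adjusted p = 2.68e-05), and those that fell were Pde3b (−0.55 ± 0.15) and Adrb3 (−0.22 ± 0.07). Skeletal muscle markers were 7 of 9 lower in females at day 5, where 6.25% of all genes were called lower. Their summed signal was 3281 to 18090 in the Adeno-CMV pools and 1074 to 2036 in the pools labelled Adeno-Cux2. Of 11 pancreatic markers none was called by limma in any of the 4 comparisons. Their summed signal reached 260500 in 1 female pool labelled Adeno-Cux2 against 1378 in the other. In males the pancreatic sum was 1355 to 18430 in the day 3 Adeno-Cux2 pools against 1200 to 2517 with Adeno-CMV. The pancreatic lipase gene Pnlip, named after its values were seen, had −0.10 and 4.49 there, so the high pool was that of replicate 2. The pancreatic sum was 1694 to 38240 in untreated males, and the muscle sum 1261 to 12210 in the male day 5 Adeno-Cux2 pools. The part of these tissues in the lipogenesis values was not tested.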

How the data were processed

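Each array compared a pair of liver RNA pools in red and green. The intensity values used were median pixel signals and local backgrounds, deposited by the authors as Agilent Feature Extraction output (9.5.3.1 and 10.7.1.1, per the file headers), with probe positions in mm8. The deposited log10 ratios are red over green after the software's own background and dye steps, and the deposited value table equals them within 5e-06, with the sign turned on replicate 2.

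Background was taken off with limma's normexp method (offset 50). The log2 ratios of the deposited intensities were then normalised by loess within arrays and turned to numerator over denominator. Outlier spots were left out. Of 41174 probes, 33335 were kept, those that the software marked well above background, in either channel, on each array of some comparison. limma 3.58.1 in R 4.3.3 was fitted to all 8 arrays with a dye term, which equals the replicate number, so it is also the replicate block. P-values were adjusted by Benjamini-Hochberg over all kept probes, and called means an adjusted p under 0.05. Residual degrees of freedom were 3 and prior degrees 3.9, and the number of arrays limits the precision. Pool signals are the normalised log2 values per channel. The fit was tested on simulated data.

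The members and gene lists were chosen with earlier results of these data known. All members are named, and from each pathway list up to 2 called genes with the largest rise and 2 with the largest fall per comparison were eligible. Some eligible genes are not reported here. Marker lists are given as counts and summed signals: hepatocyte, adipocyte, macrophage, neutrophil, stellate, endothelial, cholangiocyte, skeletal muscle and exocrine pancreas.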

Additional observations from a re-analysis of the deposited data

Results flagged for a closer look

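The response in males differed between days 3 and 5 for 2 of the 10 lipogenesis genes, by the test of the difference itself in the limma fit. In that test 8.15% of all genes by lead probe were called higher and 4.9% lower. As given above, both calls depended on each of the 4 male arrays. For Acly the day 5 minus day 3 difference was 1.03 on the log2 scale, and for Me1 it was 0.55. The Acly ratios were below 0 on 2 of 2 arrays at day 3 and on 1 of 2 at day 5, and the Me1 ratios were below 0 on all 4. The arrays of the 2 days lay on different slides, so slide and day cannot be told apart.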

How the results depend on the processing

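Counts of lipogenesis genes called were 2 (untreated), 2 (males, day 5), 3 (females), 9 (males, day 3), 0 for female minus male and 2 for day 5 minus day 3. The shares of all genes called under the alternatives are not reported here. A change in a count thus does not show whether these genes or the whole array moved. Without background subtraction the untreated count was 0, males at day 5 gave 1, females 1 and the difference between days 0. With the software's ratios these were 0, 1, 0 and 0. The untreated count was 1 with median centring, 1 on its own 2 arrays and 5 on the 4 arrays of its slide, and males at day 5 gave 4 on their own arrays. The dye term equals the replicate number, so dye and replicate cannot be told apart. Without this term the untreated count was 1, and no other count of calls moved by over 1.5 times. Leaving out 1 array at a time gave 0 to 3 (untreated), 0 to 3 (males at day 5), 0 to 3 (females), 4 to 10 (males at day 3), 0 to 0 (female minus male) and 0 to 6 (between days). With median centring Fasn and Srebf1 in males at day 5 turned to −0.0063 and −0.027, neither called. Leaving out arrays turned the sign of values that were not called: in males at day 5 Fasn (−0.36 to 0.46), Srebf1 (−0.22 to 0.27), Acaca (−0.35 to 0.16), Acly (−0.38 to 0.041), Gpam (−0.47 to 0.046) and Dgat2 (−0.27 to 0.023); in females Acaca (−0.46 to 0.32), Acly (−0.46 to 0.35), Fasn (−0.40 to 0.64), Acacb (−0.014 to 0.25), Srebf1 (−0.14 to 0.44) and Gpam (−0.026 to 0.66); for female minus male Mlxipl (−0.38 to 0.17), Fasn (−0.45 to 0.59), Acaca (−0.36 to 0.42), Acly (−0.29 to 0.52), Thrsp (−0.43 to 1.08) and Srebf1 (−0.16 to 0.42); and between days Acacb (−0.10 to 0.70). No called value changed sign under any alternative run. The cause of these changes was not tested, except that fewer arrays leave fewer degrees of freedom. Dim probes of Acaca, Acacb and Acly limit what their ratios can show.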
